A study of Equus caballus with 78 samples.

Results

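The microRNA miR-21 was followed through every small RNA library of an equine osteoarthritis study. It was read from the single entry eca-miR-21, which is 1 of 690 horse microRNA names in the deposited count files, and no other arm or variant of miR-21 is listed there. The libraries hold small RNA of extracellular vesicles, the lipid-bound particles that cells shed into body fluids. There are 26 libraries of plasma, 26 of synovial fluid from a joint labelled OA (osteoarthritis) and 26 of synovial fluid from a joint labelled CTRL. They come from the same 4 horses, numbered 2, 4, 6 and 8, at 7 time points labelled 0, 10, 35, 42, 49, 56 and 63 with no unit, so each of the 21 groups has 3 or 4 horses. Horse 4 has no library at time point 10 and horse 2 none at time point 63. The labels give neither how the disease was induced nor any treatment, so time point 0 is taken here only as the first label.

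MicroRNAs are short RNAs that load into Argonaute proteins and reduce the translation and stability of messenger RNAs that pair with their seed. miR-21 is among the most widely expressed mammalian microRNAs and is transcribed from its own unit that overlaps the end of the VMP1 gene. Its transcription is driven by STAT3 and AP-1, it represses PDCD4 among other targets, and in human and mouse tissue it is known to rise in inflammation, wound repair and fibrosis. It is also abundant in blood cells and platelets. In a fluid, fewer vesicles of a given source and less miR-21 in each vesicle cannot be told apart.

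miR-21 was detected in every one of the 78 libraries, with 46 to 468392 reads. The libraries held 2029244 to 12613572 reads in all, but only 3916 to 1865513 of them were microRNA, with medians of 14055 in plasma and, in synovial fluid, 42865.5 in the OA joint against 26141 in the CTRL joint. Levels are given as CPM, that is reads per 1000000 microRNA reads. The lowest library, plasma of horse 4 at time point 56, rests on 46 reads of 13070, which is 0.352% with an exact 95% binomial interval of 0.258% to 0.469%. The highest, plasma of horse 8 at time point 63, reached 25.1% (25.0% to 25.2%), so counting error is small beside the spread between libraries, although these intervals cover counting error only. In 3 plasma libraries (horse 2 at time point 0, horse 6 at time point 10 and horse 8 at time point 63) microRNA made up 5.86% to 18.6% of the library total, against a median of 0.287% over all plasma libraries. These microRNA-rich libraries stand apart from the rest, and the tests that involve plasma are given with and without them.

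Across libraries the fluids had like medians and unlike spreads of miR-21. The lowest, median and highest plasma libraries stood at 3520, 57099.9 and 251079 CPM. In the OA joint the same 3 values were 15581, 57417 and 119193 CPM, and in the CTRL joint 28172, 62466 and 121488 CPM. The highest plasma library was thus 71.3 times the lowest, while the range was 7.65-fold in the OA joint against 4.31-fold in the CTRL joint. On the log2 scale the SD over libraries was 1.57 in plasma and, in synovial fluid, 0.80 in the OA joint against 0.59 in the CTRL joint. Of the 26 plasma libraries, 8 lay above every joint library and 3 lay below every joint library.

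**Figure D1:**
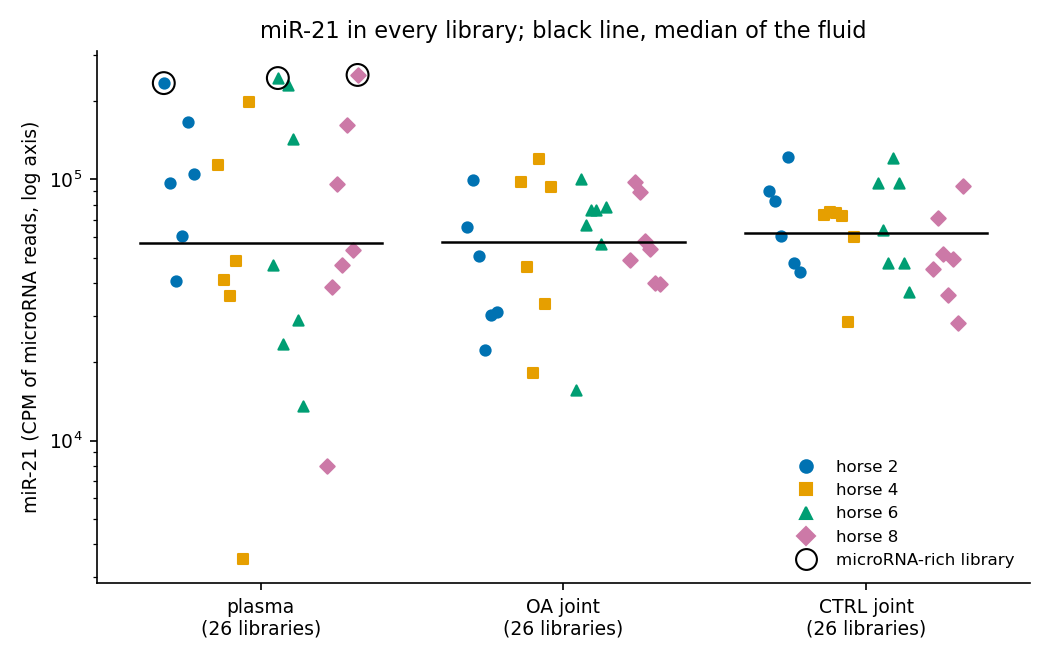
miR-21 in each of the 78 libraries (CPM of microRNA reads, log axis), by fluid and horse. Points are single libraries, black lines are the medians over 26 libraries (57099.9 CPM in plasma, 57417 in the OA joint, 62466 in the CTRL joint), and circles mark the 3 microRNA-rich plasma libraries, which lie at the top of the plasma column.

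miR-21 ranked among the leading microRNAs of each fluid. Averaged first within each horse and then over the 4 horses, it stood at 97132 ± 18467 CPM in plasma, 61616 ± 8354 CPM in the OA joint and 66343 ± 9606 CPM in the CTRL joint (SD, n = 4 horses each). The plasma mean was 78913 ± 11334 CPM without the microRNA-rich libraries. In plasma only miR-486-5p, a microRNA of red blood cells, was higher in that average, at 370538 ± 60877 CPM and in 4 of 4 horses. Below miR-21 in plasma came miR-92a of the miR-17-92 cluster (38121 ± 19119 CPM), miR-221 (37921 ± 11618 CPM) and miR-26a (35034 ± 8092 CPM), each lower than miR-21 in all 4 horses. In both joints 3 microRNAs stood above miR-21, namely let-7c, miR-26a and miR-10b. Its next neighbour there was miR-486-5p, at 60991 ± 13313 CPM in the OA joint and 64172 ± 15835 CPM in the CTRL joint, and in each joint miR-486-5p exceeded miR-21 in 2 of 4 horses, so those places do not differ beyond the spread between horses. miR-199a-3p and miR-199b-3p, mesenchymal microRNAs whose mature forms are near-identical and may share reads, followed at 58224 ± 17659 and 58084 ± 17652 CPM in the OA joint. Counted library by library, miR-21 was among the 10 most abundant microRNAs in 23 of 26 plasma, 24 of 26 OA and 26 of 26 CTRL libraries. It was the most abundant one in 5 plasma libraries, 1 OA library and 1 CTRL library.

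Whether plasma held a larger share of miR-21 than the joints depended on how the libraries of a horse were combined. When the reads of a horse were summed, miR-21 in plasma stood at 184565, 111204, 224875 and 243983 CPM in horses 2, 4, 6 and 8. The sums in the OA joint were 44268, 64702, 73296 and 57333 CPM, and those in the CTRL joint 63739, 67667, 73805 and 45143 CPM. Every plasma sum lay above every joint sum, and the sums of both joints overlapped. The deepest library decides much of such a sum: it supplied 61.4%, 39.7%, 78.3% and 96.2% of all plasma microRNA reads of horses 2, 4, 6 and 8. Of the plasma miR-21 reads alone, the 3 microRNA-rich libraries supplied 91.8%.

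In these sums miR-21 was higher in plasma than in the CTRL joint by 1.69 on the log2 scale (SE 0.39, 95% interval 0.84 to 2.54, n = 4 horses each; edgeR quasi-likelihood test, adjusted p = 0.00872 over 126 features). There 27 of 126 features passed an adjusted p of 0.05, which is 21.4%, of which 13 were higher in plasma and 14 lower. Against the OA joint miR-21 was higher in plasma by 2.10 (SE 0.32, interval 1.39 to 2.81, edgeR adjusted p = 0.000731), where 31 of 126 features passed, or 24.6%. Both comparisons share the plasma sums. Trimmed-mean scaling moved the median of all features by 0.41 against OA relative to a fit on plain microRNA totals (no scaling), so the excess of miR-21 over that median is the steadier value: 1.99 as fitted and 1.98 unscaled against the OA joint, and 1.84 and 1.81 against the CTRL joint. The p-values measure the spread between the read sums of these 4 horses, each weighted towards its deepest library. The main fit did not pair the fluids of a horse.

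Some platelet markers and both endothelial markers were higher in plasma in the same sums. Of 8 platelet microRNAs 7 were tested, and 4 were higher and 0 lower against each joint, with medians of 1.78 against the CTRL joint and 2.05 against the OA joint (beside -0.16 and 0.11 over all features). There 10.3% and 15.1% of all features were higher in plasma. The 4 platelet members were miR-126-3p (2.33 and 2.39, in the same order), miR-126-5p (1.90 and 2.32), miR-221 (2.05 and 2.64) and miR-222 (1.78 and 2.05), with edgeR adjusted p-values of 0.000270 to 0.00872. The other tested members did not pass, and most pointed the other way: miR-223 (-2.20 and -1.48), miR-24 (-1.19 and -0.90) and miR-191a (-0.29 and 0.70). Both miR-126 arms also form the endothelial list, of which 2 of 2 were higher, so those lists are not separate counts. With the microRNA-rich libraries left out, 0 of 7 platelet members passed against the CTRL joint, where 0.943% of all features were higher, and 2 of 7 (miR-126-5p and miR-221) against the OA joint, where 8.41% were. Of the 7 red blood cell microRNAs, 6 were tested. miR-16 (-1.80) and miR-25 (-1.90) were lower in plasma against the CTRL joint (edgeR adjusted p = 0.0109 and 0.0189), where 11.1% of all features were lower. Against the OA joint 0 of 6 passed. miR-486-5p of the same list stood at 1.21 against the CTRL joint and 1.61 against the OA joint, without passing (edgeR adjusted p = 0.212 and 0.143). Of the leukocyte list 0 of 7 passed against the CTRL joint and 1 of 6 against the OA joint, where miR-181a was higher in plasma (0.97, edgeR adjusted p = 0.0176; 0.213 with no scaling and 0.0841 with horse as a block). With the microRNA-rich libraries left out, none of miR-16, miR-25 and miR-181a passed, while miR-486-5p was higher in plasma than in the CTRL joint (3.34, edgeR adjusted p = 0.00438) and the OA joint (3.23, edgeR adjusted p = 0.0103).

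Without the microRNA-rich libraries the plasma sums were 106402, 111204, 154695 and 62394 CPM in horses 2, 4, 6 and 8, still above the joint sums except that the plasma sum of horse 8 lay within their range. The log2 difference was then 1.27 against the CTRL joint (SE 0.31, edgeR adjusted p = 0.0573, 2 of 106 features called) and 1.27 against the OA joint (SE 0.37, edgeR adjusted p = 0.0318, 22 of 107 called). With horse as a block as well, neither passed (edgeR adjusted p = 0.0991 and 0.101). All 26 plasma libraries carry lane 1 in their file names. In lane 1 alone, with 3 horses of the CTRL joint, the difference was 2.24 with an edgeR adjusted p of 0.0977. The OA joint has a single horse in lane 1, so there lane and fluid cannot be told apart.

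When every library counted equally, neither plasma difference passed an exact test. The mean of log2 CPM per horse was 15.94 ± 0.51 in plasma and 15.91 ± 0.21 in the CTRL joint (SD, n = 4 horses each), a difference of 0.03 with an exact two-sided permutation p of 0.943. Against the OA joint (15.72 ± 0.21) the plasma difference was 0.23 (exact permutation p = 0.371). The smallest p this design can give is 0.0286, and adjusted over the 9 permutation tests made on miR-21 each value was 0.943. Horse 2 had the highest plasma value by this measure and horse 4 the lowest. Of the 26 pairs of libraries from the same horse and time point, plasma exceeded the CTRL joint in 14 and the OA joint in 15, with log2 ratios of -3.02 to 1.93 and -3.24 to 2.66.

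**Figure D2:**
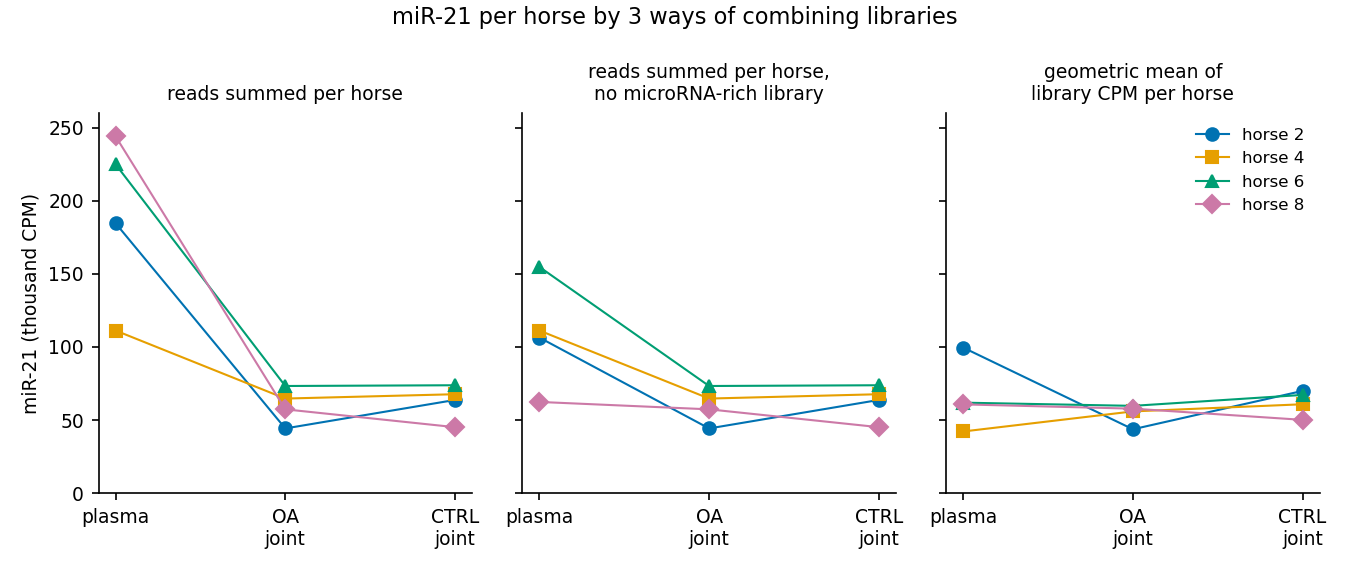
miR-21 per horse (in units of 1000 CPM) in plasma, the OA joint and the CTRL joint by 3 ways of combining the libraries of a horse. Summed reads put all 4 plasma values above the joints (lowest 111204 CPM), sums without the microRNA-rich libraries leave horse 8 among them at 62394 CPM, and the geometric mean of library CPM leaves no separation.

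On scales that do not divide by the microRNA total, plasma again had the widest spread. Per 1000000 reads of the whole library, microRNA reads included (the RPM column), miR-21 had a median of 110 in plasma with a range of 8.09 to 46792. The median was 301 in the OA joint (51.1 to 684) and 346 in the CTRL joint (67.0 to 914). The 3 microRNA-rich plasma libraries held 13700 to 46792 RPM and the other 23 plasma libraries a median of 94.3 RPM. The mean log2 RPM per horse differed by -0.09 between plasma and the CTRL joint, with an exact permutation p of 0.914, and by 0.08 between plasma and the OA joint, with an exact permutation p of 0.886. The first of these moved with the average used: without the microRNA-rich libraries it was -0.90 (exact permutation p = 0.171), and with the median over the libraries of a horse -1.38 (exact permutation p = 0.114). For the OA joint the same values were -0.74 and -0.90 (exact permutation p = 0.2 for both). Per read of the synthetic UniSp spike-ins, the differences were 0.54 and 0.88 (exact permutation p = 0.486 and 0.2). Both turned negative without the microRNA-rich libraries, and also with the median over the libraries of a horse. None of the permutation p-values given here was under 0.05.

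Within plasma, miR-21 tended to be high where miR-486-5p was low. The 3 microRNA-rich libraries had miR-21 at 233673, 244296 and 251079 CPM, with miR-486-5p at 4.47%, 0.763% and 0.0582% of microRNA reads. In the plasma library of horse 4 at time point 56, the lowest for miR-21, miR-486-5p took 48.0%. Horse 8 at time point 49 stood apart from that order, with 16.1% miR-21 and 77.4% miR-486-5p. Over the 26 plasma libraries Spearman's rho between both microRNAs was -0.70, and -0.56 over the 23 without the microRNA-rich ones. The 2 values are shares of the same total, so part of such an opposition is built in, and libraries of a horse are not independent. In the joints the sign was the other way, with a rho of 0.44 in the OA joint against 0.46 in the CTRL joint (26 libraries each). The rho of miR-21 with the microRNA share of the library was 0.56 in plasma (0.36 without the microRNA-rich libraries) and, in synovial fluid, -0.33 in the OA joint against -0.03 in the CTRL joint.

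**Figure D3:**
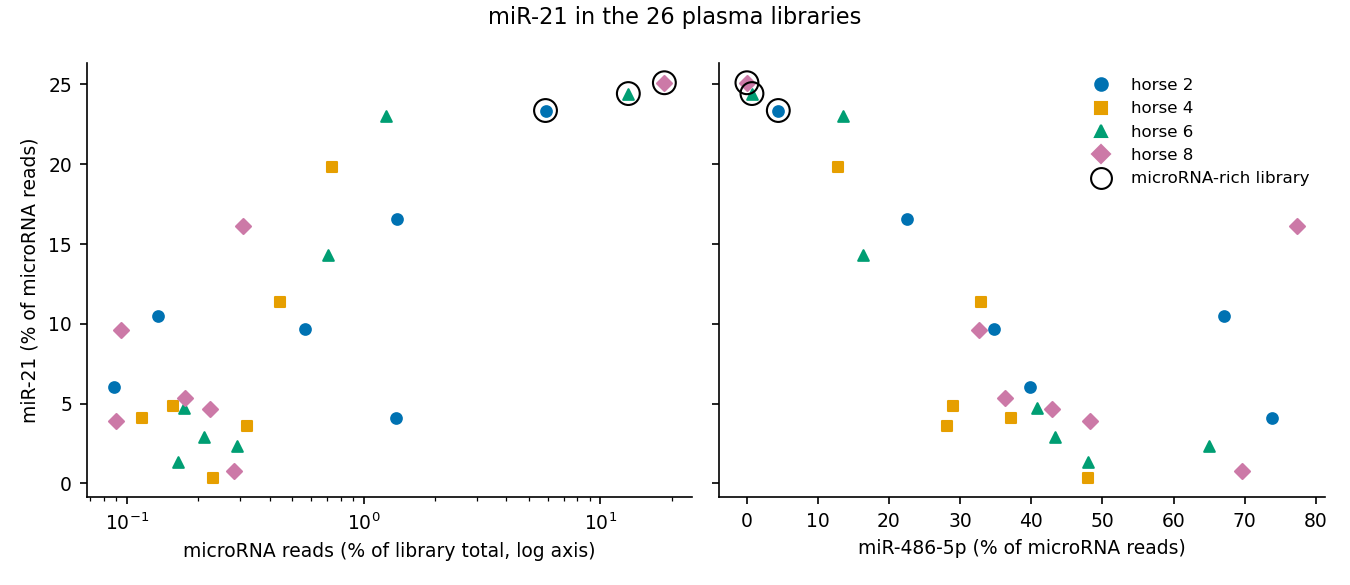
miR-21 in the 26 plasma libraries (percent of microRNA reads) against the microRNA share of the library total (left, log axis) and against miR-486-5p (right, percent of microRNA reads). Points are libraries by horse; the 3 circled microRNA-rich libraries have 23.4% to 25.1% miR-21 and the lowest shares of miR-486-5p.

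Among the plasma libraries, the red blood cell list was lower and the platelet list mostly higher where microRNA was rich and miR-21 high. A list of 7 red blood cell microRNAs (miR-486-5p, miR-451, miR-16 and others) summed to 2.27% to 6.43% of microRNA reads in the 3 microRNA-rich libraries, with 1 of 7 at 0, and to 15.3% to 78.8% in the other 23. A list of 8 platelet microRNAs, among them miR-223, miR-126-3p and miR-221, summed to 20.7% to 23.5% in the microRNA-rich libraries and to 0.424% to 21.0% in the others, with a median of 5.03%. The 10 fibroblast and mesenchymal microRNAs summed to 11.3% to 12.4% in the microRNA-rich plasma libraries and to 0.277% to 14.5% in the other plasma libraries. Summed leukocyte microRNAs, a list of 7, took 2.49% to 3.08% and 0.0779% to 5.13% in the same 2 sets of plasma libraries, with medians of 2.99% and 2.63%. These shares were not tested. The summed fibroblast and mesenchymal share was 9.62% to 33.7% in the OA joint against 5.23% to 31.1% in the CTRL joint, with medians of 4.67% in plasma and, in synovial fluid, 21.7% in the OA joint against 20.3% in the CTRL joint. Member by member that list split in the horse sums. There 3 of 10 were lower in plasma than in each joint (miR-10b, miR-199a-3p and miR-199b-3p). Another 4 of 10 were higher (miR-99a, miR-100, miR-125b-5p and miR-143). Both miR-199 forms may share reads, so they are not separate counts. Against the CTRL joint 10.3% of all features were higher in plasma and 11.1% lower. Against the OA joint 15.1% were higher and 9.52% lower. The list medians were 1.28 against the CTRL joint and 1.92 against the OA joint, beside -0.16 and 0.11 over all features. With the microRNA-rich libraries left out, 0 members were higher and 1 lower (miR-10b) against the CTRL joint, where 0.943% of all features passed in each direction. Against the OA joint 1 was higher (miR-143) and 3 lower, where 8.41% of all features were higher and 12.1% lower. The platelet list had medians of 5.38% in the OA joint against 6.08% in the CTRL joint. Both miR-140 arms, the microRNAs that mark chondrocytes, had a median of 0.00597% in the OA joint against 0 in the CTRL joint, so joint fluid carried little of that marker. What part these sources have in the level of miR-21 was not tested.

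Between the joints, miR-21 did not differ beyond the spread between horses. After time point 0 the summed reads gave a log2 difference of -0.06 for the OA joint over the CTRL joint (SE 0.25, 95% interval -0.60 to 0.49, edgeR adjusted p = 0.985, n = 4 horses each). In that fit 0 of 117 features passed (0%), 10 had an unadjusted p under 0.05, and DESeq2 called 4, with miR-21 not among them. The mean log2 CPM per horse was 15.74 ± 0.38 in the OA joint against 15.86 ± 0.17 in the CTRL joint (difference -0.12, exact permutation p = 0.6). The difference was -0.14 per library read (exact permutation p = 0.714) and -0.30 per spike-in read (exact permutation p = 0.486). Of the 26 matched pairs of libraries, the 4 at time point 0 included, the OA joint was higher in 15 and the CTRL joint in 11. Leaving out horse 2 turned the direction of the summed fit to 0.04, and lane 2 alone turned it to 0.05.

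Taken by time point, the joints parted in opposite directions at 10 and 42, and neither passed the test over all features. At time point 0 the OA joint held 65866, 97902, 15581 and 49064 CPM in horses 2, 4, 6 and 8, against 90574, 73250, 97256 and 45562 CPM in the CTRL joint. The OA joint of horse 6 was by far the lowest of these 8, and the other values overlapped between joints. The log2 difference was -0.50 (SE 0.48, edgeR adjusted p = 0.826), and -0.13 without horse 6.

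At time point 10 the OA joint held 99501, 100415 and 97912 CPM in horses 2, 6 and 8, against 82795, 64268 and 71390 CPM in the CTRL joint. The OA joint was higher in 3 of 3 horses, without overlap, and its 3 values lay within 1.03-fold of each other. With 3 horses a joint such a separation can arise by chance, and its share over all features is not given here. The fitted difference was 0.46 (SE 0.56, 95% interval -0.64 to 1.57, edgeR adjusted p = 1). The fit shares its spread over all 14 joint groups, and 0 of 139 features (0%) passed at this time. Fitted on those groups alone the difference was 0.62 with an edgeR adjusted p of 0.961.

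At time point 35 the values were 50713, 46129, 66585 and 89623 CPM in the OA joint and 60664, 75108, 47862 and 51885 CPM in the CTRL joint, in the order of horses 2, 4, 6 and 8. The OA joint was higher in horses 6 and 8 and the CTRL joint in horses 2 and 4, and the fitted difference was 0.05 (SE 0.48, edgeR adjusted p = 1). At time point 42 the OA joint held 22292, 18200, 76246 and 58064 CPM, against 121488, 74141, 120571 and 36038 CPM in the CTRL joint of the same horses. The OA joint was lower in 3 of 4 horses, and most so in horses 2 and 4, while horse 8 went the other way. Among the 7 labels this was the largest fitted difference of miR-21 between the joints, at -1.14 (SE 0.49, 95% interval -2.10 to -0.17, edgeR adjusted p = 0.301). DESeq2 gave -1.37 with an adjusted p of 0.0163, and over all 12 alternatives the adjusted p ran up to 1. Leaving out 1 horse at a time moved the difference between -1.32 and -0.32.

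At time point 49 the OA joint held 30350, 119193, 76487 and 54137 CPM in horses 2, 4, 6 and 8, against 47771, 72137, 96531 and 49338 CPM in the CTRL joint. The OA joint of horse 4 was the highest OA library of all, and each joint was the higher one in 2 of 4 horses (log2 difference -0.24, SE 0.48, edgeR adjusted p = 0.998). At time point 56 the levels were low in both joints, with 30965, 33321, 56769 and 40058 CPM in the OA joint and 44340, 28487, 47879 and 28172 CPM in the CTRL joint. The OA joint was higher in horses 4, 6 and 8, yet the fitted difference was -0.18 and its sign turned without scaling (0.11); its SE was 0.48 and its edgeR adjusted p was 1. At time point 63 horses 4, 6 and 8 had 93675, 78450 and 39740 CPM in the OA joint and 60290, 37105 and 94196 CPM in the CTRL joint. Horses 4 and 6 had more miR-21 in the OA joint and horse 8 less (0.21, SE 0.55, edgeR adjusted p = 1).

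**Figure D4:**
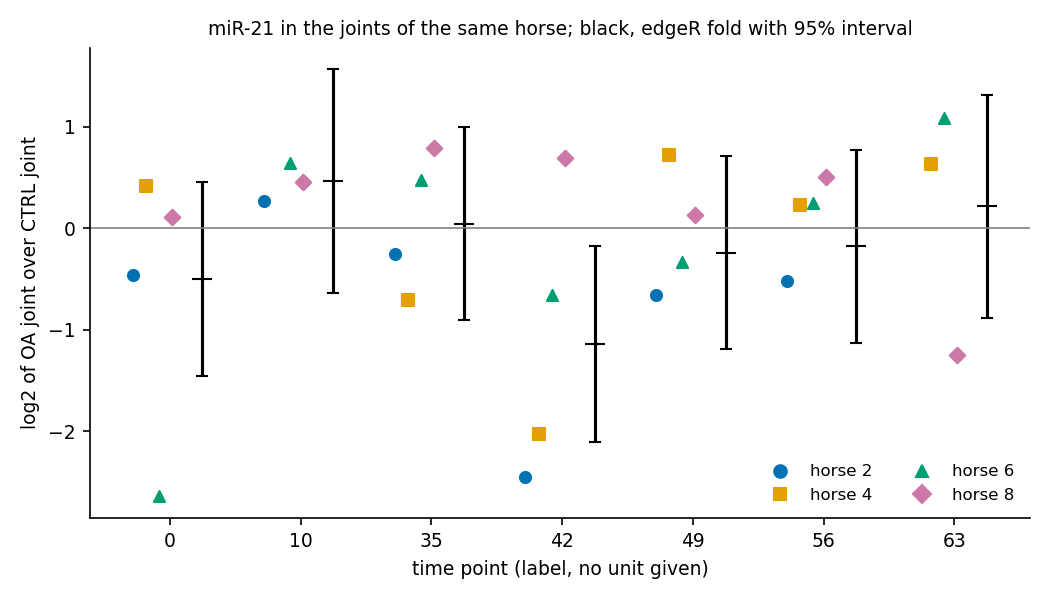
Log2 ratio of miR-21 CPM in the OA joint over the CTRL joint of the same horse at each time label, with the edgeR log2 fold and its 95% interval in black beside each set of points. All 3 points lie above 0 at time point 10 and 3 of 4 below it at 42, where the fitted value is -1.14 and its interval alone leaves out 0.

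Over time, no fluid showed a change of miR-21 that passed the test. The F-test over all later labels against 0 gave edgeR adjusted p-values of 0.402 in the OA joint, 0.743 in the CTRL joint and 0.436 in plasma (0.124 without the microRNA-rich libraries). In each joint 0 of 139 features (0%) passed that test, and in plasma 10 of 92 (10.9%), or 9 of 95 (9.47%) without the microRNA-rich libraries. Whether the joints changed differently over time was tested as an interaction, with an edgeR adjusted p of 0.736.

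In the OA joint the step to time point 10 was upward in 3 of 3 horses, with log2 ratios to time point 0 of 0.60 to 2.69. The fitted change was 0.89 (SE 0.51, 95% interval -0.13 to 1.91, edgeR adjusted p = 0.451), and 0.54 without horse 6, whose OA library at time point 0 was the lowest. In the CTRL joint the same step was upward in 1 of 3 horses. The difference between the joints in that step was 0.96 (SE 0.73, 95% interval -0.50 to 2.42, edgeR adjusted p = 0.897), and 0.48 without horse 6.

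The CTRL joint had its lowest mean at time point 56, with 37220 ± 10368 CPM (SD, n = 4 horses) against 76661 ± 23069 CPM at time point 0. miR-21 was lower at 56 in the CTRL joint of 4 of 4 horses, by 0.69 to 1.36 on the log2 scale. The fit gave -0.70 (SE 0.48, edgeR adjusted p = 0.431), in a contrast where 1 of 139 features (0.719%) passed, and over its alternatives the adjusted p was never under 0.0555. The median over all features moved by -0.69 in the same contrast, so relative to it miR-21 stood at -0.01. Of the 4 CTRL libraries at time point 56, 3 are in lane 1, and with lane as a covariate the change was -0.87. In the OA joint the mean was 40278 ± 11650 CPM at time point 56 and 57103 ± 34303 CPM at time point 0, lower at 56 in 3 of 4 horses.

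Plasma had no course that the horses shared. At time point 0 the 4 horses held 233673, 113600, 46955 and 7996 CPM, a 29.2-fold range before any later label. At time point 10 horses 2, 6 and 8 held 96447, 244296 and 38798 CPM, and at time point 35 horses 2, 4, 6 and 8 held 40928, 41041, 23373 and 96369 CPM. Horse 2 was the highest at time point 0 and horse 8 the lowest, while at time point 35 horse 8 was the highest. At time point 42 the values were 60521, 35720, 230011 and 46881 CPM, and at time point 49 miR-21 took 16.6%, 4.86%, 14.3% and 16.1% of the microRNA reads. Horse 6 stood alone at time point 42, and at 49 horses 2, 6 and 8 all lay far above horse 4. At time point 56 the values were 105150, 3520, 28957 and 53679 CPM, and at time point 63 horses 4, 6 and 8 held 198021, 13606 and 251079 CPM. Horse 4 had both its lowest and its highest plasma library at these last labels.

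The widest fitted change in plasma was at time point 49 against 0, at 2.61 (SE 1.28, edgeR adjusted p = 0.374), and 2 of 4 horses went up. That value rests on horse 8 and on the scaling: it was -0.14 without horse 8 and 0.37 with no scaling. Without the microRNA-rich plasma libraries it was 3.40 with an edgeR adjusted p of 0.258.

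**Figure D5:**
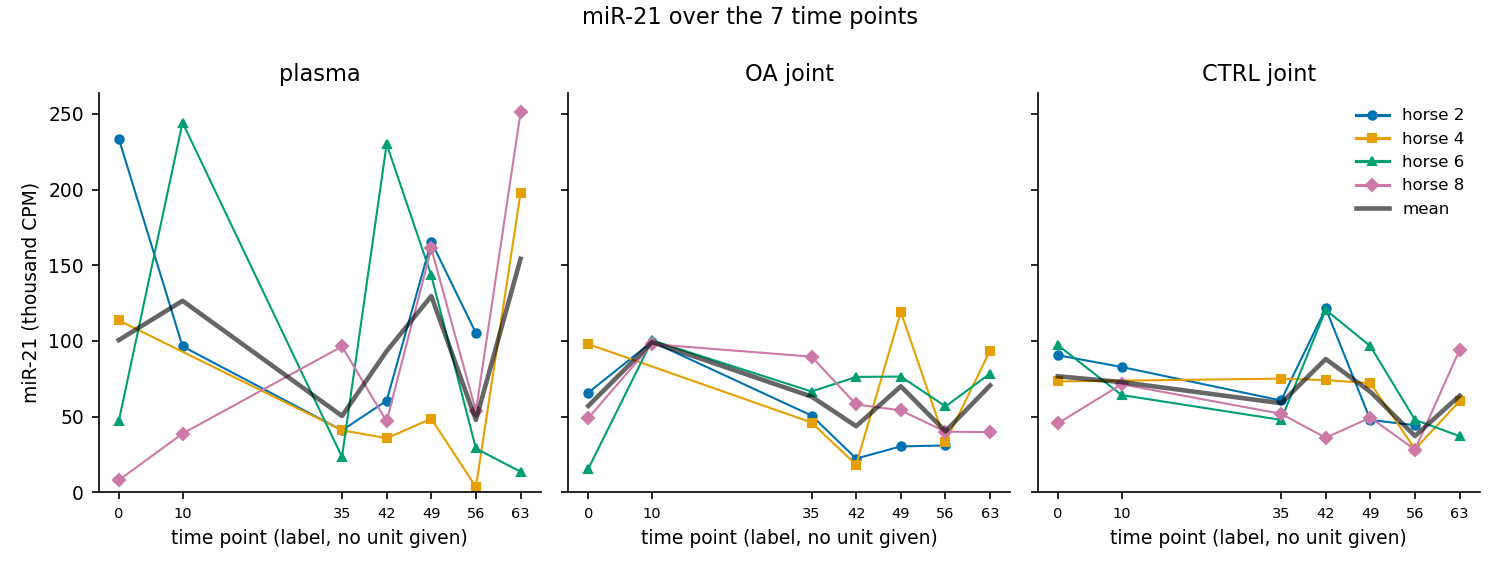
miR-21 (in units of 1000 CPM) at the 7 time labels in plasma, the OA joint and the CTRL joint. Thin lines join the libraries of a horse and the thick grey line is the mean of the group; the OA lines meet near 99276 CPM at time point 10, and the plasma lines cross without a shared course.

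Ordered by mean level, the 21 groups ran from plasma at time point 63 (154236 ± 124645 CPM, SD, n = 3) to the CTRL joint at time point 56 (37220 ± 10368 CPM). Plasma at time points 63, 49, 10 and 0 took the first 4 places and the OA joint at time point 10 the fifth, at 99276 ± 1267 CPM. Plasma at 35 and 56 stood at places 17 and 18, so plasma groups lie near both ends. For all 20 neighbouring places the gap was smaller than the larger SD of both groups and the ranges overlapped. Of the 210 pairs of groups, 15 did not overlap. The groups hold 3 or 4 horses, and the same count for other features is not given here.

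Some microRNAs were high and low in much the same libraries as miR-21. Over all 78 libraries, among 48 features with a read in at least 75% of them, Spearman's rho was highest for miR-221 (0.62), miR-126-3p (0.53), miR-99a (0.48), miR-19b (0.46) and miR-29a (0.46). miR-221 targets KIT and CDKN1B, miR-126-3p is the endothelial microRNA of the EGFL7 gene, and miR-29a represses collagen messenger RNAs. The lowest rho was that of miR-26a, at -0.39. Without the microRNA-rich libraries (75 libraries) miR-221 (0.57) and miR-126-3p (0.48) again came first and miR-26a last (-0.34). These points share horses, lanes and a common total, and they differ in depth, so the values are a description.

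Within each fluid the leading microRNAs partly differed. In plasma (26 libraries, 40 features) the highest were miR-99a and miR-221 (both 0.73) and miR-29a (0.67), and the lowest was miR-92a (-0.74). Without the microRNA-rich libraries the same 3 led, at 0.63, 0.60 and 0.55. For the OA joint (51 features) miR-126-3p (0.71), miR-221 (0.70) and miR-27b (0.61) led, and in the CTRL joint (49 features) miR-23a (0.65), miR-19b (0.51) and miR-23b (0.50). miR-10b, a microRNA encoded among the HOX genes, was lowest in both joints, at -0.69 in the OA joint against -0.62 in the CTRL joint. miR-92a, low in the plasma libraries that were high in miR-21, had a rho of 0.20 in the OA joint against 0.03 in the CTRL joint.

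Among other microRNAs known to be induced in inflammation, those that passed between plasma and the joints went in both directions. Of a list of 8 (miR-146a, miR-146b-5p, miR-155, miR-132, miR-212, miR-147b, miR-31 and miR-34a), 7 had a read and 6 could be tested between plasma and the CTRL joint. miR-31 was higher in plasma there, by 2.04 (SE 0.52, edgeR adjusted p = 0.012), where 10.3% of all features were higher. miR-146b-5p, an NF-kB target, was lower by 2.50 on the log2 scale (-2.50, SE 0.61, edgeR adjusted p = 0.0109), where 11.1% of all features were lower. The median of the 6 was -0.35, beside -0.16 over all 126 features. It lies between miR-155 (-0.60, SE 1.35) and miR-34a (-0.11, SE 2.57). In plasma miR-155, miR-132 and miR-34a had reads in only 9, 6 and 4 of 26 libraries, so that median says little about the group. Against the OA joint, 4 could be tested, with a median of -0.02 beside 0.11. There miR-31 again passed at 2.28 (edgeR adjusted p = 0.00352), among 15.1% of features higher in plasma. So did miR-146b-5p at -2.50 (edgeR adjusted p = 0.0185), among 9.52% lower. Without the microRNA-rich libraries neither passed in either comparison, and with horse as a block miR-146b-5p no longer passed against the OA joint (edgeR adjusted p = 0.0547). Between the joints 0 of 4 passed, with a median of 0.37 beside -0.03 over all 117 features.

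In a list of 12 microRNAs tied to fibrosis, few members passed and they went in both directions. Of 9 tested between plasma and the CTRL joint, 1 was higher in plasma, where 10.3% of all features were higher. It was miR-29a (1.88, SE 0.47, edgeR adjusted p = 0.0109). miR-199a-3p and miR-199b-3p were lower, at -2.23 each (SE 0.35, edgeR adjusted p = 0.000927), where 11.1% of all features were lower. These near-identical forms should be read as 1 signal. The median of the 9 was 0.98, beside -0.16 over all features. That median is the value of miR-30c (SE 2.21), which had reads in 5 of 26 plasma and 7 of 26 CTRL libraries. Against the OA joint miR-29a was higher by 3.39 (SE 0.27, edgeR adjusted p = 1.16e-05), where 15.1% of all features were higher. Both miR-199 forms stood at -2.41 (SE 0.43, edgeR adjusted p = 0.00144), where 9.52% were lower. The list median was 1.31 over 10 tested, beside 0.11. It lies between miR-214 (0.62, SE 1.44) and miR-192 (2.00, SE 1.15), while miR-30c stood at -1.70. Without the microRNA-rich libraries none of miR-29a, miR-199a-3p and miR-199b-3p passed against the CTRL joint. Against the OA joint miR-29a (2.49, edgeR adjusted p = 0.00275) and miR-199a-3p (-2.30, edgeR adjusted p = 0.0301) did. There 2 of 8 tested members were higher in plasma (8.41% of all features) and 2 lower (12.1%). The other higher member was miR-192 (2.84, edgeR adjusted p = 0.0301), and the other lower one miR-199b-3p (-2.30, edgeR adjusted p = 0.0301). Between the joints 0 of 9 passed, and miR-29a stood at -1.16 (SE 0.47, edgeR adjusted p = 0.418) in the OA joint over the CTRL joint.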

How the data were processed

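Per the labels, small RNA of extracellular vesicles was sequenced after TriLink CleanTag library preparation. Per the submitters' processing notes, cutadapt, Bowtie, edgeR and EquCab3.0 were used. The sources used here give no version or setting, nor the handling of reads that fit several near-identical microRNAs. Whole read counts were deposited per microRNA name and spike-in, with an RPM column, which the authors made per 1000000 reads of the library. No per-sample column of another sample was present (0 left out). No table of mature sequences was used here, so no sequence or seed family of miR-21 is shown.

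Counts of the 690 names formed the totals, and spike-in reads stayed out. The horse is the replicate in the summed fits and the permutation tests. Reads were summed per fluid and horse, or kept per library for single time points, and tested with edgeR 4.0.16 (TMM scaling, filterByExpr with a minimum count of 10, quasi-likelihood F-test, Benjamini-Hochberg adjustment over all features, threshold 0.05) in R 4.3.3. In the fits per library the same horses recur across groups, and the main fits had no term for horse. Their intervals and p-values thus treat those libraries as independent, and horse as a block was run as an alternative. Exact permutation tests of mean log2 values (pseudocount 1) ran in scipy 1.17.1 under Python 3.11.15. DESeq2 1.42.0 and limma 3.58.1 served as alternatives, and edgeR was tested on simulated counts. For plasma against the CTRL joint (120 features) it called 12 of 20 simulated log2 changes of 4, 1 of 7 of 2 and 0 of 93 unchanged features. For the joints at time point 56 (137 features) it called 2 of 17, 0 of 13 and 0 of 107, and for plasma at time point 56 against 0 (87 features) 0 of 16, 0 of 12 and 0 of 59, so single time points had little power. Lane was read from file names. Numbers pair samples because they name the same animals; same-horse correlations of deviations from the group means were -0.18 to 0.15. Other microRNAs were named by likeness to miR-21, neighbouring level, or membership of a fixed list, with the list members past the threshold named where a count is printed. The subject and the lists were chosen with earlier results of these data known. The cut of 5% microRNA that sets 3 plasma libraries apart was chosen on these libraries.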

Additional observations from a re-analysis of the deposited data

Results flagged for a closer look

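In 1 of the 21 groups a library stood far from the others of its group. In plasma at time point 42, horse 6 had 230011 CPM of miR-21, while the other 3 horses had 35720 to 60521 CPM. Its gap to the nearest library was 0.872 of the range of the group, above Dixon's 95% critical value for a group of 4. Chance flags about 1 in 20 groups. The library is not one of the microRNA-rich ones: microRNA was 1.24% of its total and miR-486-5p took 13.6% of its microRNA reads.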

How the results depend on the processing

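For plasma over the CTRL joint, the summed fit kept its direction under every alternative run but no longer passed without the microRNA-rich libraries (1.27), without them and with horse as a block (1.28), at time point 0 alone (1.05, edgeR adjusted p = 0.876), in lane 1 alone (2.24) and with limma on mean log2 CPM (0.035, limma adjusted p = 0.983). Without horse 2, 6 or 8 it also missed the threshold (edgeR adjusted p = 0.0525, 0.051 and 0.0526), with values of 1.34 to 2.196 over the 4 left-out horses. Over the OA joint it no longer passed with the block and without the microRNA-rich libraries (1.24), at time point 0 alone (1.40, edgeR adjusted p = 0.584) and with limma (0.23, adjusted p = 0.816), and leaving out a horse gave 1.88 to 2.28. The cause of these changes was not tested.

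With horse as a block, the pairing gave 1.63 for plasma over the CTRL joint, 2.08 for plasma over the OA joint and -0.06 for the OA over the CTRL joint, and changed no call of miR-21 in the full set of libraries.

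Differences without a call changed sign easily. The mean log2 CPM of plasma over the CTRL joint was -0.13 with medians and -0.19 without the microRNA-rich libraries, and over the OA joint -0.0033 without them. Per library read it was 0.015 over the CTRL joint with a pseudocount of 10, and over the OA joint -0.90 with medians and -0.74 without the microRNA-rich libraries. Per spike-in read it was -1.14 and -0.48 over the CTRL joint, and -0.63 and -0.13 over the OA joint, with medians and without the microRNA-rich libraries. Leaving out a horse gave, for plasma over the CTRL joint, -0.12 to 0.22 in CPM and -0.27 to 0.27 per library read; for plasma over the OA joint, -0.094 to 0.44 and -0.31 to 0.35; and for the OA over the CTRL joint, -0.24 to 0.078, -0.37 to 0.078 and, per spike-in read, -0.61 to 0.020. The summed fit of the OA over the CTRL joint ran from -0.23 to 0.037, and was 0.053 in lane 2.

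By time point, leaving out a horse gave -0.14 to 0.20 at 35, -0.37 to 0.084 at 49 and -0.27 to 0.067 at 56. At 35 the difference was -0.13 with no low-count filter and -0.054 with both groups alone. At 42, DESeq2 gave -1.37 and passed. At 49 it was 0.076 with no scaling. At 56 it was 0.0096 with RLE scaling, 0.11 with none, 0.0087 with DESeq2, 0.085 with lane as a covariate and 0.26 with both groups alone. Plasma at time point 49 over 0 ran from -0.14 (without horse 8) to 3.67. The mean plasma level of 97132 CPM was 191157 with reads summed per horse, 155234 with miR-486-5p out of the total and 61568 with medians over libraries.

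The no-scaling fits, the block without the microRNA-rich libraries and the other averages of levels were added after the data were seen. DESeq2 gave no p for miR-21 in the plasma time course. Libraries of few microRNA reads limit the plasma values, and 3 or 4 horses a group limit all tests.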
